A study of Gallus gallus with 4 samples.

Results

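Keratins and vimentin, the proteins of the intermediate filament cytoskeleton, were followed in 2 surface epithelia of the chicken bursa of Fabricius, the cloacal organ in which B cells develop. The members were all probe sets whose only gene symbol in the platform annotation is KRT followed by a digit, or VIM. They came to 16 genes, 15 of them keratin genes, out of 13009 genes that the annotation names alone, and to 24 probe sets out of 38439 that are not controls. Where a gene has several probe sets, they are lettered in the order of their identifiers. The rule itself uses gene symbols and no measured value, but it was set with earlier results of these data known. Line-M chicks, healthy and free of specific pathogens, gave RNA at 19 days of age. Follicle-associated epithelium (FAE), which lies over the lymphoid follicles, gave 2 samples, and the interfollicular epithelium (IFE), which lies between them, gave 2 more. All tissue was stained with black ink and loosened in 40 mM EDTA with 25 mM Hepes (pH 7.4) before cells were lifted with a 29G needle. FAE stood in EDTA for 5 min at room temperature and IFE for 30 min at 37 °C, so the treatment and the epithelium cannot be told apart in any value below. Groups follow the sample titles and the cell type label, since the source name of the IFE samples reads FAE. The labels do not say whether replicates were different birds, so the p-values reflect only how these samples vary, which may be technical.

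Keratin filaments are built from pairs of 1 acidic (type I) and 1 basic (type II) chain, and the pair a cell makes depends on the kind of epithelium. In mammals, KRT7, KRT8, KRT18, KRT19 and KRT20 mark simple epithelium, whereas KRT5 with KRT14 marks the basal layer of stratified epithelium. Vimentin forms filaments on its own and is the usual intermediate filament of mesenchymal cells, endothelium and leukocytes. Chicken symbols do not always follow the mammalian gene of that name. RefSeq's chicken gene table (assembly bGalGal1.mat.broiler.GRCg7b) lists KRT19 and keratin-19 as other names of chicken KRT24, KRT20 as another name of KRT40, and KRT15 as another name of KRT13. In that table the type I genes KRT222, KRT40, KRT23, KRT13, KRT24, KRT9 and KRT14 stand in this order in 1 cluster. The type II genes KRT71, KRT75L2, KRT5, KRT6A, KRT75, KRT7 and KRT80 stand in another. KRT8, KRT10, KRT17 and KRT18 are named alone by none of the probe sets in the annotation used and were not analysed here.

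Values below are scaled signals, linear array intensities on which the median probe set of an array lies near 1. A probe set was tested if its mean over the 4 arrays reached 0.695. As a background level, the 95th percentile of 744 unnamed probe sets without the chicken prefix was taken, with levels of 0.671 and 0.683 for FAE against 0.722 and 1.02 for IFE. Fold changes are FAE over IFE on the log2 scale, from limma, with p adjusted by the Benjamini-Hochberg method over all 23063 tested probe sets. Signals of different probe sets are not compared with each other, because probes differ in affinity. Where the signals of a list are summed, its brightest genes carry most of the sum. The number of arrays limits the precision throughout. The IFE replicates differed more (median absolute log2 difference 0.482) than the FAE replicates (0.252). With an FAE array left out, the spread comes from the more variable IFE pair, and calls over all probe sets became fewer. A call lost in that setting is therefore not by itself a weakness of the gene named. The beta-actin 3'/5' signal ratio was far above 1 on every array, a sign of shortened or 3'-biased RNA. After 2-cycle amplification of all samples, it was 31.2 on IFE replicate 2 and 14.4 to 18.6 on the other arrays. The epithelial adhesion genes EPCAM and CDH1 were bright on every array, though not all epithelial genes tested were. In FAE, EPCAM had scaled signals of 315.2 and 412.2 and CDH1 had 245.3 and 320.5. In IFE, EPCAM had 501.1 and 554.1 and CDH1 had 393.6 and 483.6.

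In FAE, vimentin rose 7.84-fold over IFE, and KRT5 was 3.06-fold and 3.19-fold higher on its 2 bright probe sets, of which the one with the smaller estimate passed the test. KRT14, the partner of KRT5 in mammals, was 2.15-fold higher and did not pass. The keratins that RefSeq or mammalian usage ties to simple epithelium, KRT7, KRT24 and KRT40, were bright in both epithelia, and no probe set of theirs passed. Of the 24 probe sets, 16 passed the filter on dim values, covering 11 genes. Of these 16, 2 were called higher in FAE and none lower (limma, adjusted p under 0.05), where 8.23% of all tested probe sets were called, 5.22% higher and 3.01% lower. A count of 2 in 16 is near that background and says nothing particular of these genes. An unadjusted p under 0.05 was reached by 6 of the 16, where 23.9% of all tested probe sets reached it. Without overlap between the groups were 11 of the 16, with FAE above IFE for 5 and below it for 6, where 55.9% of all tested probe sets had none.

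**Figure D1:**
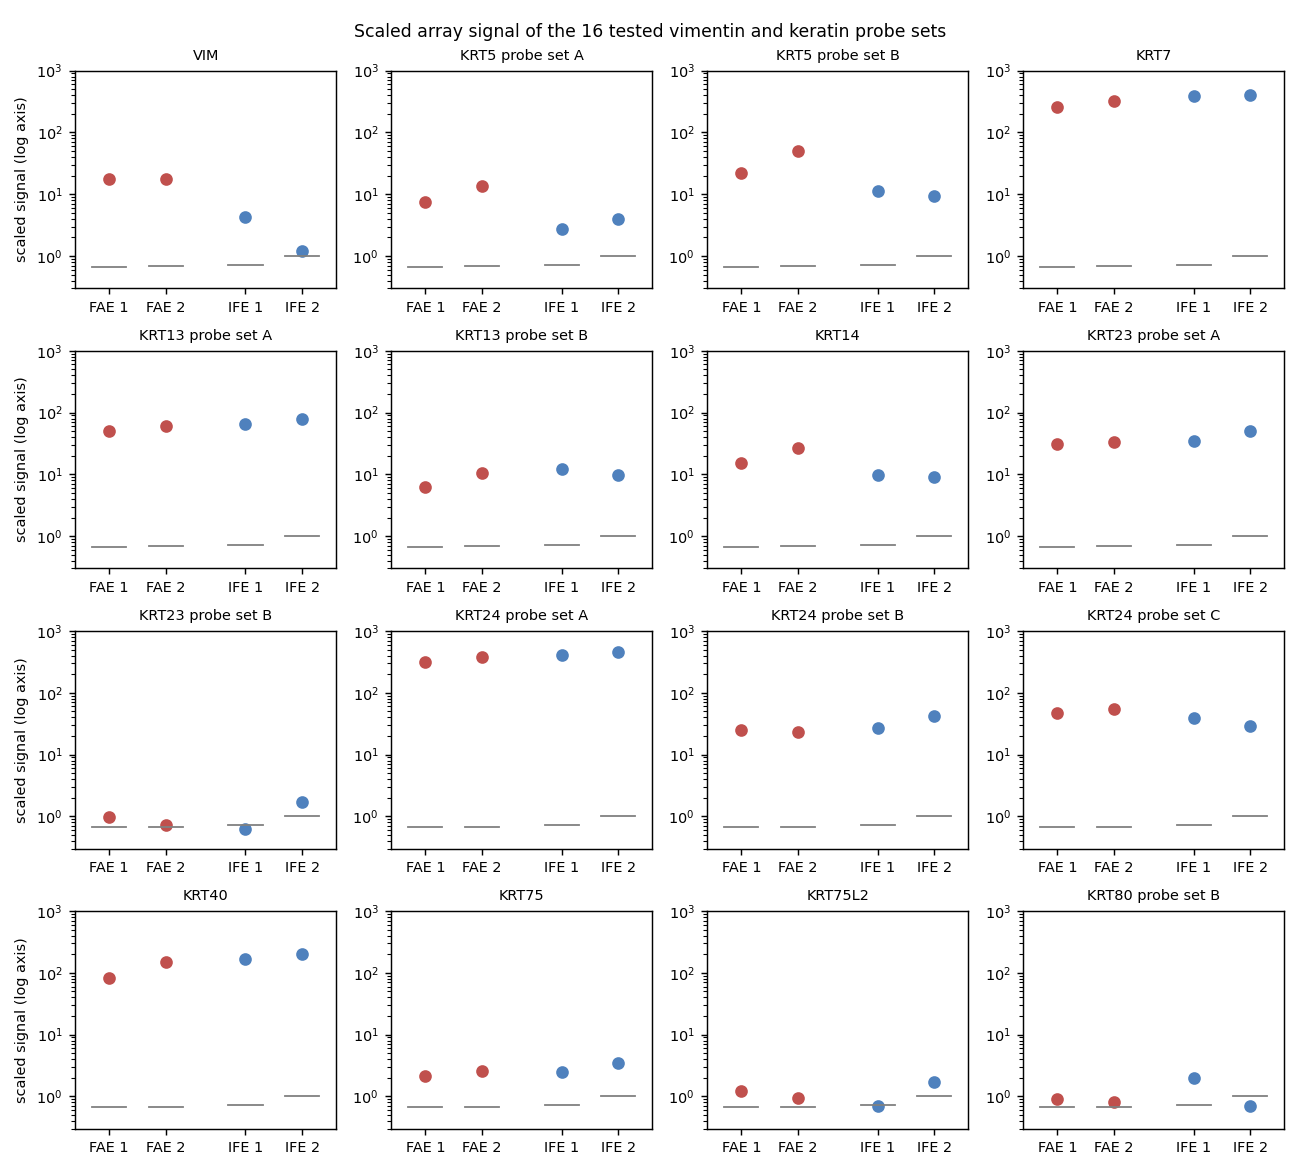
Scaled signal (vertical log axis) of each tested vimentin and keratin probe set on the 2 FAE arrays (red) and the 2 IFE arrays (blue); each point is 1 array and the grey bars mark that array's background level. Vimentin, both KRT5 probe sets and KRT14 have both FAE points above both IFE points, and the vimentin point of IFE replicate 2, at 1.21, sits just above the background level of 1.02.

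Vimentin was measured by 1 probe set, whose suffix marks probes shared by transcripts of the same gene. Its scaled signals were 17.7 and 17.8 in FAE against 4.25 and 1.21 in IFE. The FAE arrays were nearly equal, both lay above both IFE arrays, and the IFE arrays differed from each other by 1.81 on the log2 scale. The mean was 17.8 ± 0.0823 in FAE and 2.73 ± 2.15 in IFE (SD, n = 2 each). The log2 fold change was 2.97 (SE 0.55, limma adjusted p = 0.0231), a fold of 7.84 with a 95% confidence interval of 3.18 to 19.3. Its size depended on which IFE array was used: 2.06 without IFE replicate 2 and 3.88 without IFE replicate 1. Those fits take the spread of this probe set from the nearly equal FAE arrays and leave out the difference between the IFE arrays. With a single FAE array the value hardly moved, 2.97 in each case, but the call was lost. The spread of this probe set was then taken from the 2 unequal IFE arrays. In picked samples of mixed cells, a change in the number of cells of a type and a change in RNA per cell cannot be told apart.

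KRT5, a type II keratin, was measured by 3 probe sets. KRT5 probe set B had scaled signals of 21.8 and 50.1 in FAE against 11.4 and 9.40 in IFE. KRT5 probe set A had 7.47 and 13.7 in FAE against 2.71 and 4.01 in IFE. On both probe sets each FAE array lay above each IFE array, and FAE replicate 2 was the highest of the 4. The log2 fold change was 1.68 (SE 0.41, adjusted p = 0.0524) for probe set B and 1.62 (SE 0.38, adjusted p = 0.0482) for probe set A, so the call falls on either side of the threshold for nearly equal estimates. These are folds of 3.19 (95% confidence interval 1.64 to 6.22) and 3.06 (1.64 to 5.71). In the same order, probe set B first, neither passed without FAE replicate 1 (adjusted p = 0.0745 and 0.125) or without FAE replicate 2 (0.384 and 0.353, at log2 fold changes of 1.07 and 1.18). Both passed when IFE replicate 1 was left out (0.0223 and 0.0320) and without IFE replicate 2 (0.0449 and 0.0104). The call of probe set A was also lost with quantile normalization (0.0801), without the filter (0.0657) and without the intensity trend (0.133). KRT5 probe set C was too dim to be tested, at 0.470 and 0.995 in FAE against 0.557 and 0.481 in IFE, and only the value of FAE replicate 2 exceeded background.

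KRT14, the type I chain that pairs with KRT5 in mammalian basal cells, had scaled signals of 15.3 and 26.9 in FAE against 9.63 and 9.21 in IFE. Both FAE arrays were above both IFE arrays, and FAE replicate 2 was again the highest. The mean was 21.1 ± 8.20 in FAE and 9.42 ± 0.299 in IFE (SD, n = 2 each), and the log2 fold change of 1.11 (SE 0.33, adjusted p = 0.0924) did not pass. It passed without IFE replicate 1 (1.14, adjusted p = 0.0412), and was 1.51 without FAE replicate 1 and 0.70 without the other. The FAE replicates differed by 1.20 on the log2 scale for KRT5 probe set B, by 0.87 for probe set A and by 0.81 for KRT14, against the array-wide median of 0.252. The summed signal of 20 fibroblast and mesenchyme genes was unequal too, 23.4 on FAE replicate 1 and 44.8 on FAE replicate 2, below the 77.7 and 100.1 of the IFE arrays. Other lists differed in either direction: on the same FAE arrays, general epithelial genes summed to 1349 and 1662, and endothelial genes to 24.6 and 20.7. What part these differences play in the keratin values was not tested.

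As a description of likeness, the log2 values of each probe set were centred on their mean over the 4 arrays and compared by root mean square difference. The profiles of KRT5 probe sets B and A differed by 0.320, and 27 of the tested probe sets were nearer. KRT14 differed from it by 0.325, with 31 nearer, while VIM differed by 0.945, with 8927 nearer. The named genes nearest to KRT5 were RTN1 (reticulon 1), at 0.168, the ubiquitin-like gene UBL5, at 0.199, and DENND4C, at 0.218. In IFE, RTN1 and DENND4C were not above background on either array, and they passed the filter through FAE. Those nearest to VIM were the collagen gene COL12A1, at 0.114, the interleukin receptor gene IL21R, at 0.140, and RAB10L, at 0.142. COL12A1 was not above background on either IFE array, nor IL21R on IFE replicate 2. The distances and ranks of these dim genes therefore rest partly on values at background, and with only 4 arrays many profiles are alike.

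**Figure D2:**
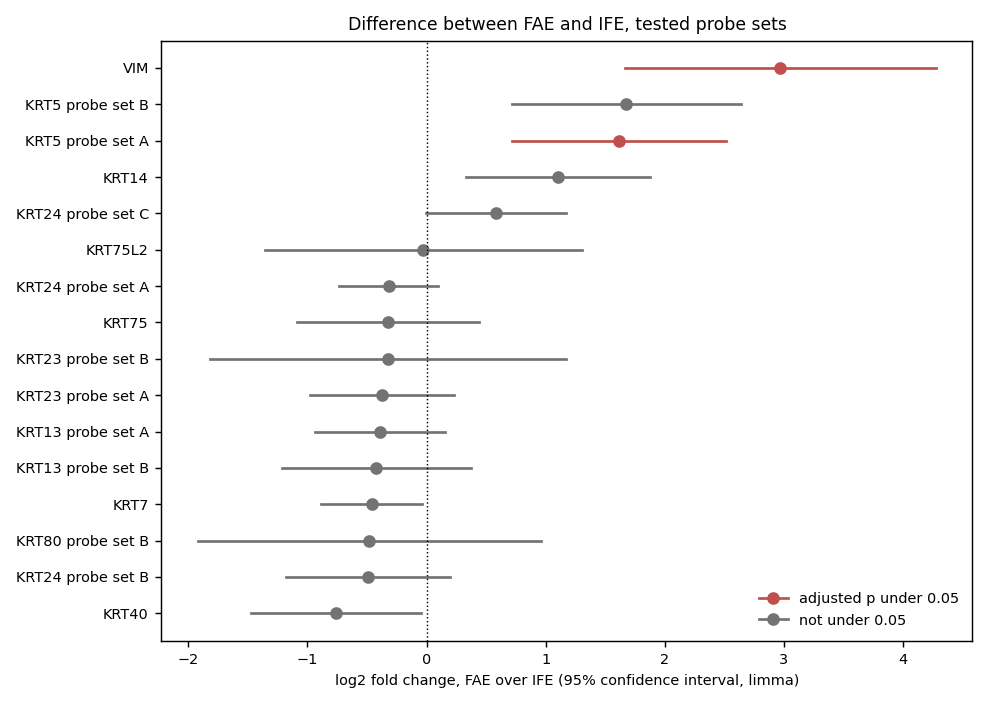
Log2 fold change (horizontal axis, FAE over IFE) of the 16 tested vimentin and keratin probe sets, as points with the 95% confidence interval from limma; red marks an adjusted p under 0.05. Vimentin (2.97) and 1 KRT5 probe set (1.62) are marked, and most other keratins lie slightly below 0.

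KRT7, a type II keratin of simple and glandular epithelium in mammals, had scaled signals of 259.0 and 320.4 in FAE against 392.0 and 401.4 in IFE. The suffix of its only probe set marks probes shared with other transcripts. Both FAE arrays lay below both IFE arrays. The log2 fold change was -0.46 (SE 0.18, adjusted p = 0.174), with a 95% confidence interval of -0.88 to -0.04, and it did not pass. With quantile normalization the value was 0.0146.

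KRT24, the gene that RefSeq also lists as chicken keratin-19, was measured by 3 probe sets that disagreed in sign. KRT24 probe set A had 311.6 and 374.5 in FAE against 401.3 and 451.4 in IFE, and the log2 fold change was -0.32 (SE 0.18, adjusted p = 0.329). KRT24 probe set B had 24.8 and 22.8 in FAE against 26.4 and 42.3 in IFE, and the log2 fold change was -0.49 (SE 0.29, adjusted p = 0.361). For both, FAE lay below IFE without overlap. KRT24 probe set C, whose suffix marks probes shared with other transcripts, went the other way. It had 47.7 and 54.6 in FAE against 39.4 and 29.4 in IFE, and the log2 fold change was 0.58 (SE 0.25, adjusted p = 0.210). Probe sets B and C carry the same sequence accession in the annotation, yet IFE replicate 2 was the highest array on one and the lowest on the other. Without IFE replicate 1 these 2 passed in opposite directions, at -0.83 (adjusted p = 0.0144) and 0.80 (0.0171). With quantile normalization probe set A turned to 0.24. No direction can therefore be given for KRT24.

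KRT40, a type I keratin that RefSeq also lists as KRT20, had 81.1 and 147.5 in FAE against 168.5 and 203.6 in IFE. Both FAE arrays were below both IFE arrays, and FAE replicate 1 was the lowest. The log2 fold change was -0.76 (SE 0.30, adjusted p = 0.186), with a 95% confidence interval of -1.48 to -0.04. This was the lowest log2 fold change of any tested member, and it did not pass.

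KRT13, a type I keratin of stratified mucosa in mammals, had 50.0 and 60.7 in FAE against 65.0 and 80.1 in IFE on probe set A, with a difference of -0.39 in log2 (adjusted p = 0.360). Its probe set B, whose suffix marks probes shared with other transcripts, had 6.27 and 10.7 in FAE against 12.3 and 9.82 in IFE. The groups overlapped there, at -0.42 (adjusted p = 0.496). KRT23, another type I keratin of epithelia, had 31.0 and 33.6 in FAE against 35.3 and 49.4 in IFE on probe set A, with a difference of -0.37 in log2 (adjusted p = 0.431). KRT75, which in mammals belongs to the hair follicle, was low but above background on all arrays, at 2.16 and 2.54 in FAE against 2.46 and 3.50 in IFE (log2 fold change -0.32, adjusted p = 0.596). None of these passed the test. Their 95% confidence intervals began between -1.22 and -0.94 and ended between 0.16 and 0.44, and for KRT13 probe set B and KRT75 they reached past a 2-fold decrease.

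Of the 9 keratin probe sets above background on all arrays other than those of KRT5 and KRT14, 8 had a negative log2 fold change, between -0.76 and -0.32. None passed (adjusted p from 0.174 to 0.596). These 8 include probe sets A and B of both KRT13 and KRT24, so they are not all separate genes. With quantile normalization, KRT24 probe set A had 0.24 and KRT7 had 0.0146. The share of negative values over all tested probe sets was not counted. The median log2 fold change of the 15 tested keratin probe sets was -0.32, against -0.07 for all tested probe sets. Scaling to a common median instead moved all values by 0.13, and brought that over all probe sets to 0.06. General epithelial markers were set beside these keratins. Of 13 tested general epithelial genes, 2 were lower in FAE and 1 was higher, where 3.95% of all tested genes were called lower and 6.31% higher. Their median was -0.49, against -0.07 for all genes, and their summed signal was 1349 and 1662 in FAE against 2251 and 2276 in IFE. The epithelial transcription factor ELF3 fell by 1.48 on the log2 scale (SE 0.21, adjusted p = 0.00895, and 0.107 without FAE replicate 1). The brush border gene VIL1 rose, at 2.39 (adjusted p = 0.00857, and 0.106 without FAE replicate 1). The intestinal cadherin CDH17 fell by 1.40 (adjusted p = 0.0397). Its call was lost without FAE replicate 1 (0.407), without FAE replicate 2 (0.0605), with quantile normalization (0.0605), the common median (0.0556), no filter (0.0596) and no intensity trend (0.141). The part of these in the keratin values was not tested.

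The remaining members were near or under background. KRT75L2 had 1.21 and 0.959 in FAE against 0.695 and 1.74 in IFE, with a log2 fold change of -0.03 (adjusted p = 0.985). KRT23 probe set B and KRT80 probe set B were likewise above background on only 3 arrays each, with log2 fold changes of -0.32 and -0.48 and adjusted p = 0.801 and 0.682. The 8 probe sets that were not tested never exceeded 0.995, and 5 of them were not above background on any array: those of KRT3, KRT9 and KRT71, which in mammals belong to cornea, palm and sole skin, and hair follicle, probe set A of KRT80 and probe set B of KRT222. KRT6A, a keratin of wounded and fast-growing epithelium in mammals, exceeded background only on FAE replicate 2, at 0.702. KRT222 probe set A had 0.288 and 0.0751 in FAE against 0.810 and 0.974 in IFE, and exceeded background only on IFE replicate 1. For these probe sets no fold is given. A further 3 probe sets name several genes with a keratin among them and were left out.

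**Figure D3:**
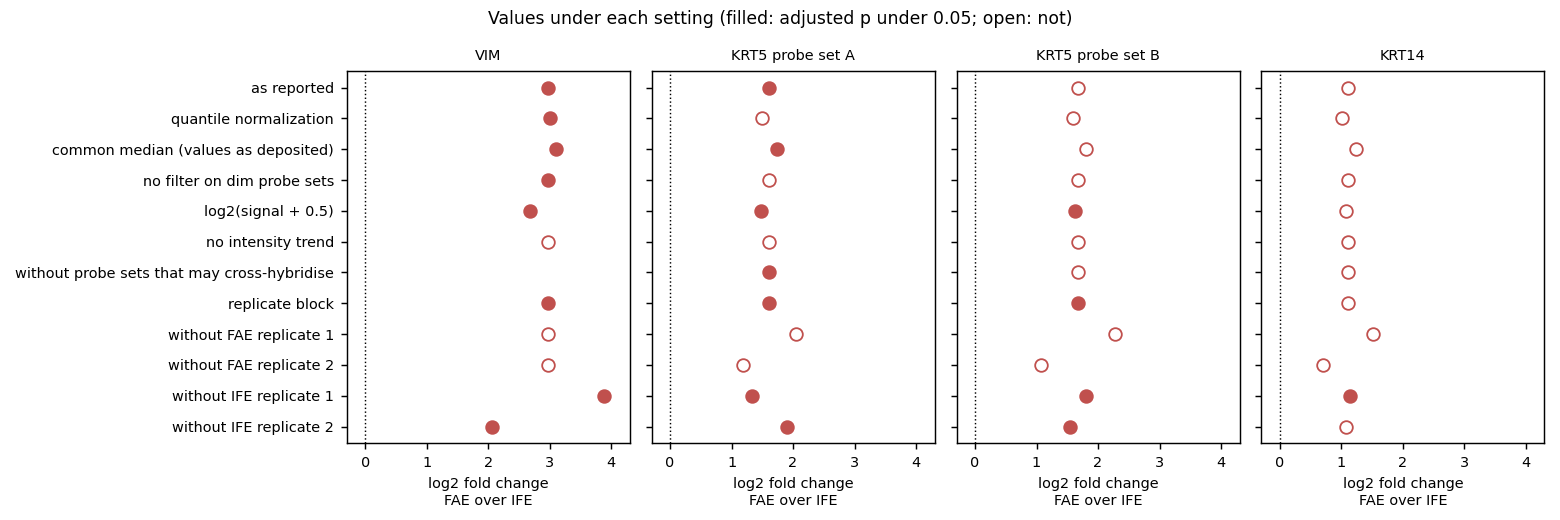
Log2 fold change (horizontal axis, FAE over IFE) of vimentin, 2 KRT5 probe sets and KRT14 under the reported setting and each alternative (rows); filled points have an adjusted p under 0.05, open points do not. Every value lies above 0, the vimentin value ranges from 2.06 to 3.88 with 1 IFE array left out, and no filled point is seen where an FAE array is left out.

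Other intermediate filament genes, from a list drawn up from textbook families, showed 2 of 10 tested members higher in FAE and none lower, where 10.3% of all tested genes were called. Their median log2 fold change was 0.67, against -0.07 for all genes. DES, NEFL, NEFH and LMNA were each not above background on at least 1 array, so this median rests partly on values at background. Synemin (SYNM), a large filament protein that joins vimentin or desmin filaments, had scaled signals of 10.6 and 6.70 in FAE against 0.441 and 0.382 in IFE. Both IFE values were not above background, so SYNM passed the filter through FAE and was at least 9.81-fold higher there. Its adjusted p of 0.00232 (limma) rests partly on IFE values at background. IFFO2, an intermediate filament family orphan gene, had 26.5 and 16.6 in FAE against 3.95 and 4.14 in IFE, and the log2 fold change was 2.37 (SE 0.31, adjusted p = 0.00708, and 0.109 without FAE replicate 1). Its relative IFFO1 had a log2 fold change of 1.05 (adjusted p = 0.0532), while another IFFO1 probe set gave -0.37 (adjusted p = 0.639), so these disagree. The nuclear lamina gene LMNB1 had a log2 fold change of 1.08 (adjusted p = 0.209), with 12.9 and 12.3 in FAE against 3.67 and 9.73 in IFE. Desmin (DES), the filament of muscle, had 0.894 and 0.833 in FAE against 1.04 and 0.198 in IFE, and its log2 fold change of 0.93 (adjusted p = 0.596) turned to -0.27 without IFE replicate 2. NEFM, NES, SYNC and BFSP2 were not above background on any array.

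Genes of the keratin anchorage, the plakins and desmosomal plaque proteins that tie keratin filaments to the cell border, were called in 1 of 12 tested cases, lower in FAE, which is no more than the 10.3% of all tested genes called. Their median was -0.25, against -0.07 for all genes, their summed signal was 269.3 and 271.4 in FAE against 337.1 and 285.5 in IFE, and PKP3 was not above background on any array. The desmosomal plaque gene PKP2 had 45.5 and 45.6 in FAE against 113.1 and 130.7 in IFE. It fell by 1.42 on the log2 scale (SE 0.21, adjusted p = 0.00997), with nearly equal FAE arrays and no overlap, and the call did not hold with either FAE array left out (adjusted p = 0.167 and 0.119). Envoplakin (EVPL) at -1.59 (adjusted p = 0.0867) and PKP1 at -1.03 (0.112) did not pass. Desmoplakin (DSP), which binds keratin directly, had a log2 fold change of 0.71 (adjusted p = 0.123), with 38.1 and 41.4 in FAE against 26.4 and 22.4 in IFE.

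Markers of basal and stratified epithelium, the layer that KRT5 and KRT14 mark in mammals, were set beside these keratins. None of 8 tested was higher in FAE and 2 were lower, where 6.31% of all tested genes were called higher and 3.95% lower, and the median was 0.01. COL17A1, a hemidesmosome collagen, had 11.2 and 12.7 in FAE against 29.8 and 28.3 in IFE, and fell by 1.29 on the log2 scale (SE 0.24, adjusted p = 0.0241). The hemidesmosome integrin ITGB4 had 5.37 and 5.53 in FAE against 14.3 and 11.0 in IFE, and fell by 1.20 (SE 0.27, adjusted p = 0.0431). Neither passed when FAE replicate 1 was left out (0.403 and 0.451) or FAE replicate 2 (0.211 and 0.321), with the common median or without the intensity trend. ITGA6 at 0.58 (adjusted p = 0.210) and SFN at 0.76 (0.383) did not pass, nor did another ITGA6 probe set, at 1.03 (0.0783). TP63 had 15.3 and 13.9 in FAE against 16.5 and 10.3 in IFE, so the groups overlapped, at a log2 fold change of 0.16 (adjusted p = 0.791). The summed signal of this list was 79.5 and 75.9 in FAE against 109.7 and 77.6 in IFE, and every one of its 8 genes exceeded background on at least 1 array.

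Leukocyte markers were set beside vimentin, as a comparison of FAE with IFE and not of single arrays. Of 13 tested macrophage and dendritic cell genes, 8 were higher in FAE and none lower, where 6.31% of all tested genes were called higher and 3.95% lower, and the median was 3.23. With quantile normalization and with the replicate number as a block, 1 was called lower, and that count also moved with either IFE array left out. Their summed signal was 1201 and 1184 in FAE against 456.2 and 524.1 in IFE, and all 14 genes on the array exceeded background somewhere. CD74, which did not pass (log2 fold change 0.17), gave 390.3 and 524.6 of the FAE sums and 361.1 and 449.2 of the IFE sums. Among the 8 called higher, C1QC had 4.76 and 2.68 in FAE against 0.269 and 0.411 in IFE. Neither IFE value was above background, so C1QC passed the filter through FAE. C1QA, also called higher, was not above background on IFE replicate 1, at 0.651. SPI1, CSF1R, ITGB2 and MERTK, genes of the myeloid lineage and of engulfment, had log2 fold changes of 3.27, 3.50, 3.92 and 4.01 (adjusted p from 0.00208 to 0.00287). IRF8, a transcription factor of myeloid and B cells, at -1.27 (adjusted p = 0.0719), and the scavenger receptor MARCO, at -0.69 (0.325), did not pass, with both FAE arrays below both IFE arrays. MARCO was dim, at 1.06 and 0.987 in FAE against 1.62 and 1.69 in IFE. Of 11 tested B cell genes, 7 were higher and none lower, against the same shares of all genes, and the median was 2.64. Their summed signal was 235.4 and 248.2 in FAE against 96.6 and 88.0 in IFE, and CXCR5 alone was not above background on any array. BLNK, among the genes called higher, was counted through SH2D6, the gene for which RefSeq's table gives it as another name. BTK, SYK, CD79B and IKZF3, which act in B cell signalling and identity, had log2 fold changes of 4.27, 3.74, 3.30 and 2.71, while another IKZF3 probe set gave -0.13. PAX5, the B cell identity factor, was dim, at 1.44 and 0.859 in FAE against 1.52 and 2.65 in IFE, not far above background. Its log2 fold change was -0.85 (adjusted p = 0.315), with both FAE arrays below both IFE arrays, so no direction is given for it. The 4 myeloid and 4 B cell genes with the lowest adjusted p were picked by that value in these data, so they do not stand for their lists. Of the B cell genes, 4 of 11 were called higher without the intensity trend. After dropping probe sets that may cross-hybridise, it was 4 of 8. The macrophage and dendritic cell genes gave 8 of 13 and 5 of 9 in these settings. The part of leukocytes in the vimentin signal was not tested.

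Among markers of other cells that make vimentin, calls went in both directions. Of 14 tested fibroblast and mesenchyme genes, 3 were lower in FAE and none higher, where 3.95% of all tested genes were called lower and 6.31% higher, and the median was -0.92. Their summed signal was 23.4 and 44.8 in FAE against 77.7 and 100.1 in IFE, and LUM and TWIST1 were not above background on any array. SNAI2, a transcription factor of mesenchymal transition, had 1.08 and 1.35 in FAE against 8.88 and 7.33 in IFE, and fell by 2.74 on the log2 scale (SE 0.30, adjusted p = 0.00406, and 0.0513 without FAE replicate 1). The collagen gene COL6A2 fell by 2.72 (adjusted p = 0.00867), a call lost without FAE replicate 1 (0.0752) and FAE replicate 2 (0.0538), and another of its probe sets gave -0.60 (0.328). COL5A1 had 0.408 and 1.22 in FAE against 5.18 and 5.12 in IFE and fell by 2.87 (adjusted p = 0.0229, and 0.0992 without FAE replicate 1), a size that is not exact because FAE replicate 1 was not above background. SPARC, at -2.22 (adjusted p = 0.0535), did not pass, and another probe set gave 0.02.

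Of 6 tested endothelial genes 1 was called, where 10.3% of all tested genes were: CDH5 (vascular cadherin), with 13.9 and 9.20 in FAE against 0.953 and 1.03 in IFE and a log2 difference of 3.51 (SE 0.32, adjusted p = 0.00256). These IFE values were not far above the background levels of 0.722 and 1.02, so the size for CDH5 is not exact. The receptor gene KDR was too dim to be tested, at 0.153 and 0.165 in FAE against 0.839 and 1.39 in IFE, with only the IFE arrays above background. TEK, TIE1, ERG and EMCN, which also define endothelium, were not above background on any array. EGFL7 (-1.25), VWF (-1.28) and FLT1 (-0.41) did not pass. The summed signal of the endothelial list was 24.6 and 20.7 in FAE against 14.4 and 22.3 in IFE. Of 5 tested smooth muscle genes 1 was called, against the same 10.3%. CALD1, a caldesmon that is not confined to muscle, had 15.1 and 14.7 in FAE against 3.09 and 2.74 in IFE, and the log2 fold change was 2.35 (SE 0.26, adjusted p = 0.00416, and 0.0705 without FAE replicate 1). TPM2, a tropomyosin, had a log2 fold change of 0.54 (adjusted p = 0.255) on the probe set used, while another gave 2.01 (adjusted p = 0.00690), and TAGLN had -0.79 (0.408). ACTA2, the defining actin of smooth muscle, was not above background on any array, and the list summed to 102.2 and 91.4 in FAE against 70.3 and 56.6 in IFE. Their part in the vimentin signal was not tested.

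**Figure D4:**
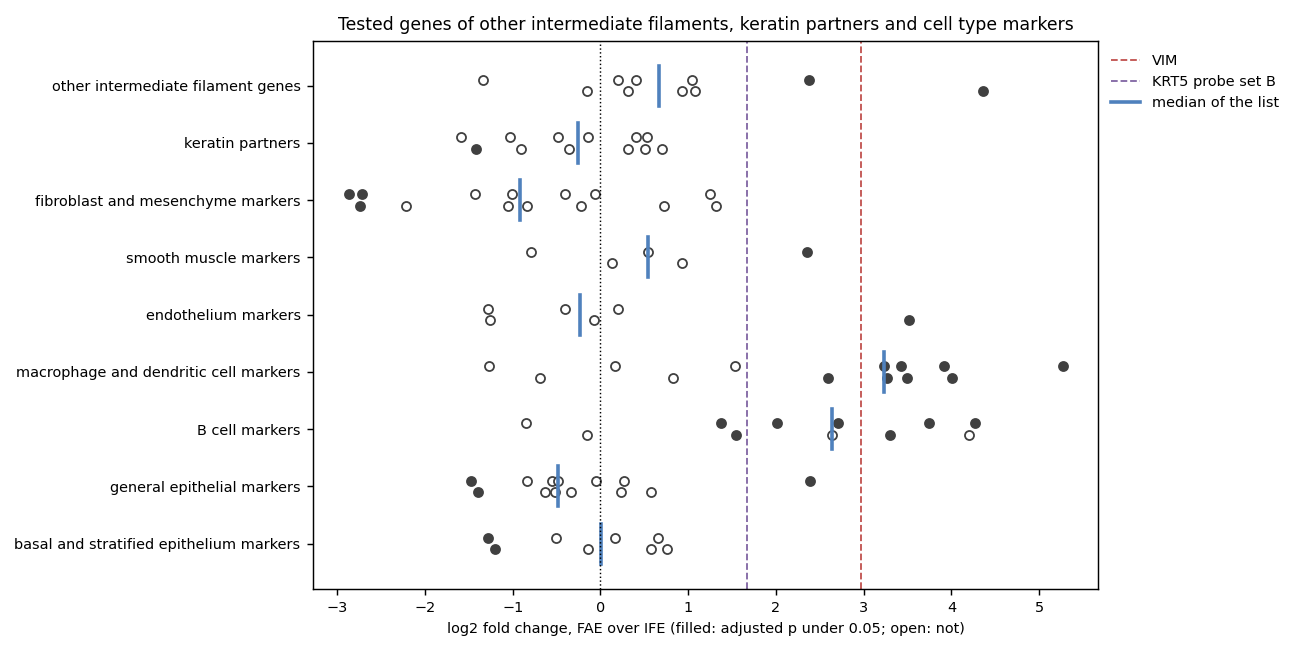
Log2 fold change (horizontal axis, FAE over IFE) of each tested gene in 9 lists (rows), filled where the adjusted p is under 0.05; blue bars are list medians and the dashed lines mark VIM (2.97) and KRT5 probe set B (1.68). The medians of macrophage and dendritic cell genes (3.23) and B cell genes (2.64) lie near the vimentin line, that of fibroblast and mesenchyme genes (-0.92) lies left of 0, and every list has genes on both sides of 0.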

How the data were processed

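Total RNA was amplified by a 2-cycle protocol, labelled with biotin and hybridised to 1 single-colour array per sample. The authors' deposited values are linear intensities from MAS5, as the submitters' processing notes name it. The MAS5 version and settings, and a genome build, have no statement in the sources used here. The median of every array as deposited is 1. The arrays were scaled to a common mean trimmed by 2% at each end, and log2 was taken with no offset. Of 38535 probe sets, 96 controls were left out. Probe sets whose mean fell under the 40th percentile were not tested. The fit was a two-sided limma comparison (3.58.1, R 4.3.3; lmFit, eBayes with an intensity trend) of FAE over IFE. It was also run on simulated data with independent normal noise, which checks the code and not the calls made here. Other scalings, offsets, filters and fits, a replicate block and each array left out were alternatives. Of several tested probe sets, the one of highest mean log2 signal stood for a list gene. Named genes are all members, up to 4 genes of each list by adjusted p, and the 3 nearest profiles to KRT5 and VIM. EPCAM, IRF8, MARCO, CD74, C1QA, C1QC, PAX5, KDR, TP63 and genes at background were named outside this rule, after their values were seen. Members and lists were chosen with earlier results of these data known. Symbols came from the platform annotation, updated through RefSeq's table. The ID of 1 member (KRT3) was not in it. No sequences are shown.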

Additional observations from a re-analysis of the deposited data

How the results depend on the processing

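Of 170 values of member probe sets under 11 alternatives, 145 kept their direction and their side of the threshold, 8 lost a call, 9 gained one and 8 changed sign. Most of the 145 were values that stayed uncalled. The 8 lost calls were all of vimentin or KRT5 probe set A, the only members called as reported. The calls of vimentin and KRT5 probe set A were lost with either FAE array left out. Calls over all probe sets also became fewer then, and more with either IFE array left out. A call lost without an FAE array is thus not particular to 1 gene. The log2 fold change of vimentin stayed at 2.97 in both cases. That of KRT5 probe set A was 2.05 without FAE replicate 1 and 1.18 without FAE replicate 2. Over all probe sets, 191 to 3567 were higher and 44 to 2471 lower in FAE with each array left out. Among keratin and vimentin probe sets, 0 to 5 were called higher and 0 to 2 lower. Other intermediate filament genes gave 1 to 5 higher, and keratin anchorage genes 0 to 3 higher and 0 to 3 lower. Without the intensity trend, 449 probe sets were higher and 102 lower, with 0 members and 0 keratin anchorage genes called, and the adjusted p of vimentin was 0.0976. Of the members, 1 was called higher with quantile normalization, 1 without the filter and 1 after dropping probe sets that may cross-hybridise. That setting dropped every suffix that marks shared probes. It thus left out the vimentin probe set, whose suffix marks probes shared by transcripts of the same gene. In that last setting, 1 other intermediate filament gene was called.

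With the replicate number as a block, 1540 probe sets were higher and 1083 lower in FAE, 3 members were called higher (KRT5 probe set B among them, adjusted p = 0.0158) and 1 lower (KRT40, 0.0457), and 2 keratin anchorage genes were lower. Deviations of same-numbered samples had a correlation of 0.0246 over the tested probe sets. This value cannot show whether same-numbered samples shared a bird or a batch.

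These values, none of them called as reported, changed sign. With quantile normalization, KRT24 probe set A had 0.24, KRT7 had 0.0146 and KRT75L2 had 0.0424. KRT75L2 had 0.10 with the common median. With each array left out, KRT75L2 ranged from -0.69 to 0.63 (0.14 without FAE replicate 2), KRT23 probe set B from -1.05 to 0.41, KRT80 probe set B from -1.23 to 0.27 and FLT1 from -0.88 to 0.0591. DES had 0.98 without FAE replicate 2. It had -0.27 without IFE replicate 2, and was too dim to be tested with either other array left out. The cause was not tested. An array left alone in its group was taken to vary like the others. Vimentin on IFE replicate 2 lay near background, which limits how well its fold is known.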
